A study of Saccharomyces cerevisiae with 4 samples.

Results

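The promoters described here are those of DLD3, RPN9, SLX5, TMH11 and SNX41 in budding yeast lacking RRP6. They were chosen by a measured value, the number of reads that start upstream of each gene on the opposite strand, with SNX41 added because the opposite-strand RNA of RPN9 runs into it. All RNA isoforms on both strands that overlapped one of the 5 genes, with 800 bases upstream and 300 bases downstream, were taken. An isoform here is a distinct pair of start and end position. The windows held 1915 isoforms with 4777 reads, out of 425462 isoforms and 1833796 reads in all, and the 5 genes were among 6002 annotated open reading frames (ORFs).

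The measurements came from TIF-Seq, in which full-length cDNA is closed into a circle and read across the junction, so that each read gives the capped start and the polyadenylated end of one RNA. All cells were Saccharomyces cerevisiae FSY3636, a MATa haploid of S288c background carrying delta rrp6::kanMX4, grown to mid-log phase in YPAD, a rich glucose medium. The 4 libraries, 2 preparations from each of 2 cultures, form a single group, were pooled into 1 count column by the authors and have no normal strain beside them. No replicate error exists for any value below, no test was run, and all intervals are 95% intervals for counting error only. RRP6, the deleted gene, had 0 sense reads, which allows up to 3 reads. Its ORF is 2202 bases long, and 423 of 1326 ORFs over 2000 bases had 0 sense reads. The 0 therefore says little about the deletion.

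Yeast promoters often fire in both directions, because the nucleosome-free stretch upstream of a gene can hold separate transcription complexes for either strand. The RNA made away from the gene is usually short. It is ended early by the RNA-binding proteins Nrd1 and Nab3, which recognise short RNA motifs, and it is then degraded by the nuclear exosome, of which Rrp6 is an exonuclease. A strain without Rrp6 therefore keeps many such RNAs, and TIF-Seq can show where each one begins and ends.

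The genes have unlike roles. DLD3 encodes a D-lactate dehydrogenase family enzyme and responds to the retrograde signal that mitochondria send to the nucleus. RPN9 encodes a subunit of the proteasome lid. SLX5 encodes one subunit of a ubiquitin ligase that recognises SUMO-modified proteins. TMH11 encodes a small membrane protein. SNX41 encodes a sorting nexin that acts in membrane traffic.

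On build R64, DLD3 (YEL071W) lies on chromosome V at 16355 to 17845, plus strand. RPN9 (YDR427W) and SNX41 (YDR425W) lie on chromosome IV at 1322205 to 1323386 and at 1320064 to 1321941, both on the plus strand, with SNX41 directly upstream of RPN9. SLX5 (YDL013W) lies on chromosome IV at 429067 to 430926, plus strand, and TMH11 (YJR085C) on chromosome X at 585120 to 585437, minus strand. Positions below count from the first base of the start codon, which is 0, along the gene, so that upstream positions are negative. Sense reads are those on the gene's strand that start in the 500 bases upstream and reach the start codon. Opposite-strand reads start in the same 500 bases on the other strand and touch no annotated ORF or noncoding RNA gene of their own strand.

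The sequence between the 2 leading starts, the positions with most reads on each strand, is shown for RPN9 and TMH11, whose promoters fit in 300 bases. Each is written along the gene, so that its first base is the leading opposite-strand start and its last base the leading sense start, and capitals mark the motifs named in the text that follows.
RPN9, chrIV:1321978-1322173, plus strand: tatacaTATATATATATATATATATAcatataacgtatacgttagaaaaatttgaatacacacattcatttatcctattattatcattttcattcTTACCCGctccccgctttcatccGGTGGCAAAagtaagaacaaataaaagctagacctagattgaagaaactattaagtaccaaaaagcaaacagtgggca
TMH11, chrX:585481-585654, minus strand: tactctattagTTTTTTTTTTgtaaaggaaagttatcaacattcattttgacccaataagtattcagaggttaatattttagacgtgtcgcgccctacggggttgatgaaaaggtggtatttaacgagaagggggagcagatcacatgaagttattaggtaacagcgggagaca

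DLD3 and SLX5 have longer promoters, so the 100 bases just before their leading opposite-strand starts are shown, written along the opposite-strand RNA, with a stretch nearer to DLD3 written along the gene. Capitals again mark motifs.
DLD3 before the opposite-strand start, chrV:15989-16088, minus strand: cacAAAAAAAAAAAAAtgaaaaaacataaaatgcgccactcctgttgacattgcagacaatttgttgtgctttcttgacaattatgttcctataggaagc
SLX5 before the opposite-strand start, chrIV:428733-428832, minus strand: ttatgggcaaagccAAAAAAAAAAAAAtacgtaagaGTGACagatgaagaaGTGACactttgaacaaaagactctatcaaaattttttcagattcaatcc
DLD3 nearer to the gene, chrV:16185-16275, plus strand: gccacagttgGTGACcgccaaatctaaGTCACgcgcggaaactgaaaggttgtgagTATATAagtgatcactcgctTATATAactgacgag

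The motifs searched, on both strands of the 500 bases upstream, were the TATA elements TATAAA and TATATA, the sites named next, and the run AAAAAAA. GGTGGCAAA is the proteasome element bound by the activator Rpn4, CGGGTAA is the core of the site of Reb1, which helps to keep promoters free of nucleosomes, GTCAC is the core of the box bound by the retrograde factors Rtg1 and Rtg3, and runs of A hinder nucleosome formation. RPN9 was the only one of the 5 promoters with GGTGGCAAA, at −109 to −101, which 99 of 6000 promoters (1.65%) held. It also held CGGGTAA on the opposite strand at −132 to −126, printed as TTACCCG. On either strand, 10.1% of promoters held CGGGTAA, TMH11 among them on the sense strand at −496 to −490. In RPN9, overlapping copies of TATATA filled −221 to −202, directly beside the opposite-strand start, and TATATA was found in 47.65% of promoters.

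DLD3 held GTCAC on both strands, at −143 to −139 and at −160 to −156, and TATATA at −114, −94 and −12. GTCAC is common, since 42.45% of promoters held it, SLX5 with 2 copies, printed as GTGAC, RPN9 and SNX41 among them. A run of 13 A on the opposite strand, at −282 to −270, ended 85 bases before the opposite-strand start of DLD3, and another of 13, at −261 to −249, ended 74 bases before that of SLX5. In TMH11 a run of 10 A, at −206 to −197, ended 11 bases before the start and is printed as T along the gene. RPN9 had no run of 7 A, which 64.45% of promoters held. At least 50 opposite-strand reads were found at 6 of the 99 promoters with GGTGGCAAA (6.06%), at 4.90% of those with TATATA, 4.38% with TATAAA, 4.32% with AAAAAAA, 3.97% with CGGGTAA and 3.77% with GTCAC, beside 4.10% of all ORFs. These matches are letters in a window and say nothing of which protein was bound.

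Most promoter reads lay on the opposite strand at DLD3, RPN9, SLX5 and TMH11, and none did at SNX41. DLD3 had 727 opposite-strand reads and 47 sense reads, so that 93.9% of promoter reads were on the opposite strand (Wilson interval 92.0 to 95.4). RPN9 had 442 opposite-strand reads and 71 sense reads, or 86.2% (82.9 to 88.9). At SLX5 there were 414 opposite-strand and 2 sense reads, or 99.5% (98.3 to 99.9). TMH11 was the most even, with 392 opposite-strand and 265 sense reads, or 59.7% (55.9 to 63.3). SNX41 had 0 opposite-strand reads and 2 sense reads.

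The 0 at SNX41 allows up to 3 reads. All 4 genes with at least 50 promoter reads had more opposite-strand than sense reads, beside 206 of 2028 such ORFs in the genome (10.2%). Because opposite-strand counts chose these genes, nothing is read from that difference. DLD3, RPN9 and SLX5 are between 1182 and 1860 bases long, and among ORFs over 1000 and up to 2000 bases 108 of 661 (16.3%) had more opposite-strand reads. Of all 6002 ORFs 3258 had 0 opposite-strand reads.

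Sense counts differed between ORFs of different length. The median number of sense reads was 27 for ORFs up to 500 bases, 59 for ORFs over 500 and up to 1000 bases, 12 for those up to 2000 bases and 2 for longer ones. The 47 sense reads of DLD3 and 71 of RPN9 lay above the median of their length class, and the 2 of SLX5 and 2 of SNX41 below it. The 265 of TMH11 lay above the median of the shortest class. The ratio of opposite-strand to sense reads was 15.5 at DLD3, 6.23 at RPN9 and 1.48 at TMH11. Recovery of cDNA by length was not measured, and its part in these ratios was not tested. TMH11, at 318 bases, gives sense and opposite-strand RNAs of more similar length, with medians of 259 bases on the opposite strand and 444 bases on the sense strand.

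The genes that stood nearest in rank were RPS28B, a ribosomal protein gene with 430 opposite-strand reads, between RPN9 and SLX5, and, after TMH11, RTS1 (314), IMD4 (300), LST7 (287) and ADE57 (276). RPS28B had 1020 sense reads, so that 29.7% of its promoter reads were on the opposite strand. RTS1, which encodes a phosphatase subunit, resembled SLX5 in its 5 sense reads but had opposite-strand RNAs with a median length of 1041 bases. Of the RTS1 opposite-strand reads, 37.9% ended before A-rich genome, beside 0.242% at SLX5. There the poly(T) primer could have bound inside a longer RNA, as described with the ends below. The median length at RTS1 without such ends was not tested.

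**Figure D1:**
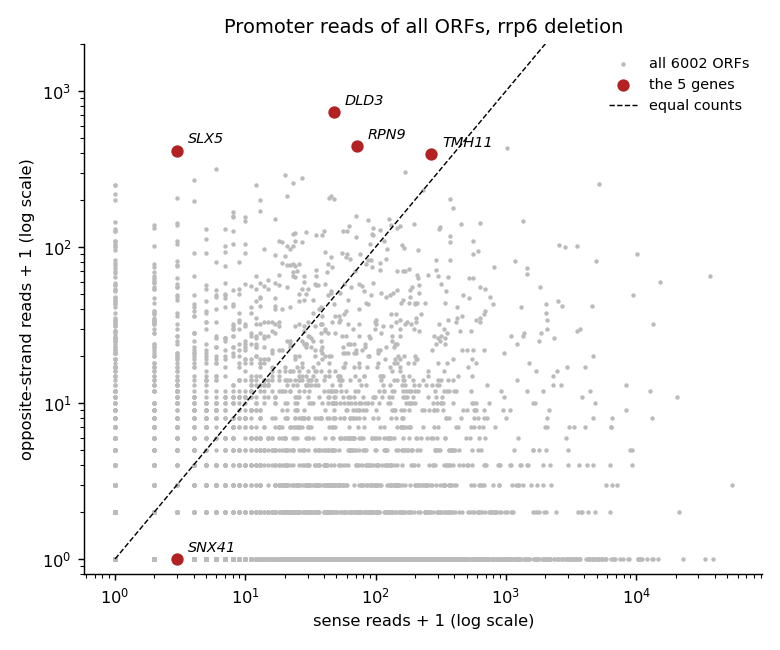
Opposite-strand reads against sense reads in the 500 bases upstream of each of 6002 ORFs, both with 1 added and on log scales; red points are the 5 genes and the dashed line marks equal counts. DLD3, RPN9, SLX5 and TMH11 lie above the line with 727, 442, 414 and 392 opposite-strand reads, and SNX41 lies at 0.

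Opposite-strand reads started from narrow places, well apart from the leading sense starts at DLD3, RPN9 and TMH11. At DLD3, 519 of the opposite-strand reads began at −367 and 90 at −372, while the sense reads began mostly at −36 (17 reads) and −13 (12 reads). The leading starts were 331 bases apart. At TMH11 the opposite strand began at −217 (255 reads) and −209 (77 reads), and the sense strand at −44 (127 reads) and −39 (71 reads), 173 bases apart. SLX5 opposite-strand reads began at −335 (249 reads), −341 (60 reads) and −338 (36 reads), and its 2 sense reads at −177 and −137 give no leading start.

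RPN9 showed a regular pattern. Its opposite-strand reads began at −227 (206 reads), −225 (107), −223 (20), −221 (16) and −219 (13), in steps of 2 bases, which together made 81.9% of them, whereas the 4 positions between had 2 reads in all. The last of these starts fall inside the TATATA repeat printed for this promoter. Sense reads of RPN9 began at −32 (30 reads) and −30 (20 reads), so that the leading starts were 195 bases apart. Across 162 promoters with at least 50 opposite-strand and 10 sense reads, the median distance was 214.5 bases (quartiles 173 and 285).

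Within 10 bases of the leading opposite-strand start lay 86.7% of the reads at DLD3 (84.0 to 88.9), 95.2% at RPN9 (92.8 to 96.9), 93.2% at SLX5 (90.4 to 95.3) and 94.9% at TMH11 (92.3 to 96.7). The median over 246 promoters with at least 50 opposite-strand reads was 67.5% (quartiles 49.1 and 82.2). The central 80% of starts spanned 6 to 9 bases at the 4 promoters, beside a median of 40.5 bases over the 246. DLD3 had the lowest share of the 4, and 725 of its 727 reads began between −429 and −277.

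**Figure D2:**
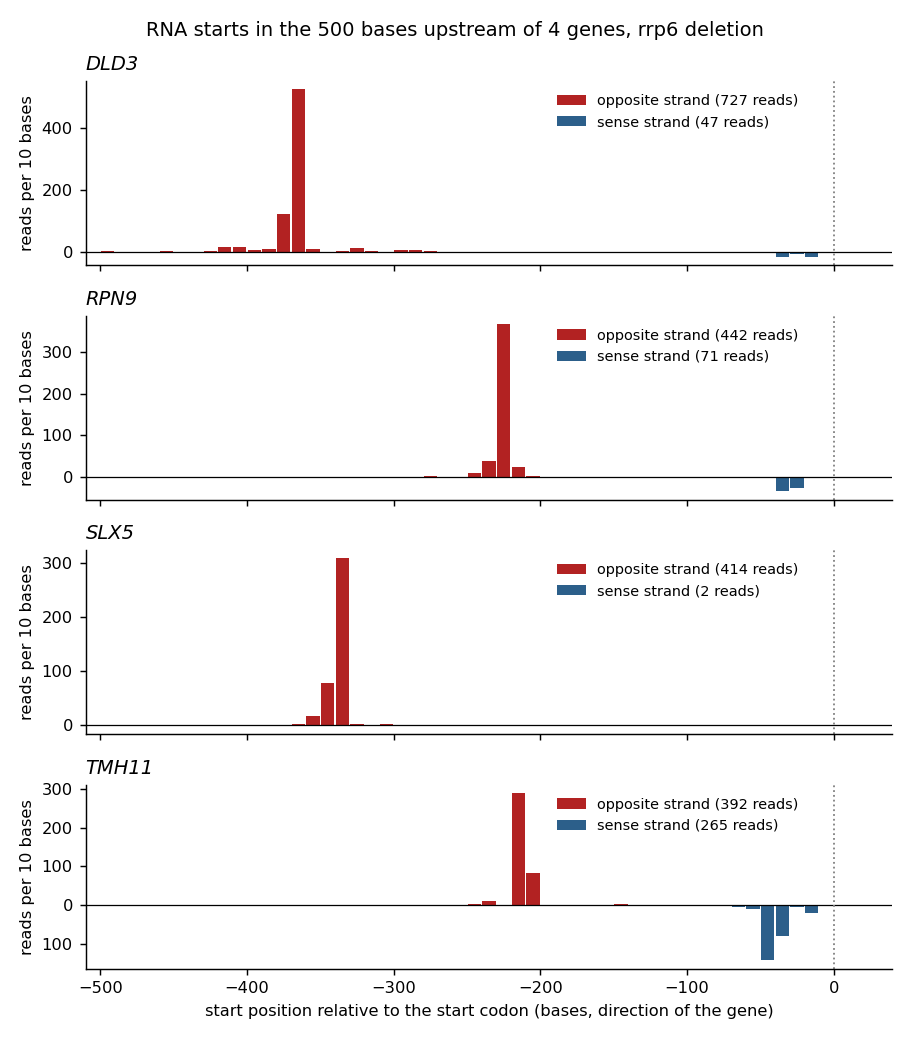
Reads per 10 bases by start position relative to the start codon, for 4 genes, with opposite-strand starts drawn upward in red and sense starts drawn downward in blue. Opposite-strand starts peak near −367, −227, −335 and −217. Most sense starts at DLD3, RPN9 and TMH11 lie close to the start codon, and SLX5 has 2 sense reads.

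The ends of the opposite-strand RNAs were spread over many positions at DLD3, RPN9 and SLX5 and were narrow at TMH11. The 727 reads at DLD3 ended at 177 positions, the 442 at RPN9 at 140, the 414 at SLX5 at 85 and the 392 at TMH11 at 34. The central 80% of ends spanned 168 bases at DLD3, 183 at RPN9 and 162 at SLX5, but 7 bases at TMH11. The median over the 246 promoters was 183 bases, and 19 of them were narrower than TMH11. With each isoform counted once, the span at TMH11 was 53 bases, beside 233 at DLD3, 206 at RPN9 and 118 at SLX5. Without 1 isoform of SLX5, described with the isoforms, its span was 99 bases.

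At TMH11, 174 reads ended at −475 and 73 at −473, and 91.8% ended within 10 bases of −475. The reads from −217 and those from −209 both ended most often at −475, and the 27 reads from −216 most often at −473. RPN9 had far more spread ends, with 41 reads at its leading end, −834, and 10.9% of reads within 10 bases of it. Its starts shared a leading end as well. Reads from −227, −225 and −232 all ended most often at −834, with 8.25%, 12.1% and 9.68% of their reads there. DLD3 ended most often at −717 (75 reads), −734 (63) and −726 (45), and SLX5 at −636 (53), −680 (36) and −782 (33).

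Ends can also be compared by how often 2 reads drawn from the same RNA population share an exact end. For opposite-strand RNAs this was 2.97% at DLD3, 1.74% at RPN9, 4.73% at SLX5 and 24.4% at TMH11. The median over the 246 promoters was 10.6% (quartiles 2.45 and 35.2), so TMH11 lay within the quartiles and RPN9 below them. For the mRNAs the value was 7.31% at DLD3, 23.2% at RPN9 and 27.2% at TMH11, beside a median of 16.7% over 162 promoters (quartiles 9.18 and 26.7). At RPN9, 3 ends held 14.9% of its opposite-strand reads and 84.5% of its sense reads. Over the genome, the opposite-strand value was below the sense value at 96 of 162 promoters (59.3%).

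These values depend on repeated reads of the same isoform. With each isoform counted once, the opposite-strand value was 0.531% at DLD3, 0.660% at RPN9, 1.19% at SLX5 and 3.66% at TMH11, and the sense value was 5.04% at DLD3, 13.8% at RPN9 and 13.0% at TMH11. The values of the 2 strands of TMH11, close by reads, were thus apart by isoforms. Over the genome, 133 of 154 promoters (86.4%) then had the lower value on the opposite strand. Isoforms counted once can share an end only if their starts differ, so this value also depends on how starts are spread. TMH11 had 16 different starts on the opposite strand and 26 on the sense strand. The difference by isoforms is therefore not a measure of ends alone. Starts were shared more often, by 52.6% of read pairs on the opposite strand and 19.98% on the sense strand at DLD3, by 28.5% and 25.9% at RPN9, and by 46.6% and 30.7% at TMH11. The opposite strand had the higher value for starts at 93 of 162 promoters (57.4%).

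**Figure D3:**
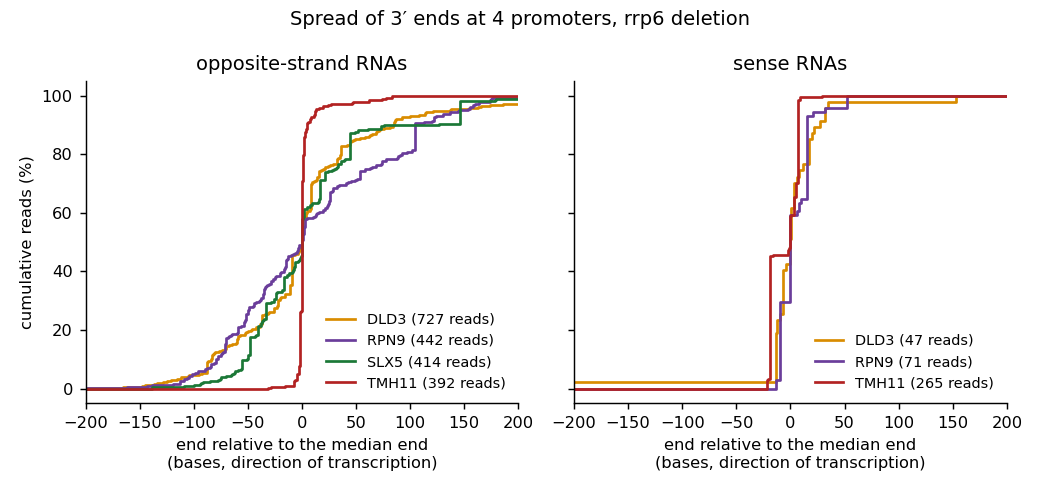
Cumulative share of reads by end position, as distance from the median end in the direction of transcription, for opposite-strand RNAs (left) and sense RNAs (right). TMH11 rises in a single step on the left, where its central 80% of ends span 7 bases, while DLD3, RPN9 and SLX5 span 162 to 183 bases; SLX5 is left out on the right because it has 2 sense reads.

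Lengths followed from these starts and ends. The median opposite-strand RNA was 357 bases long at DLD3 (interval 351 to 360, quartiles 323 and 381), 503 at RPN9 (495 to 507, quartiles 452 and 569), 302 at SLX5 (297 to 302, quartiles 263 and 332) and 259 at TMH11 (259 to 259, quartiles 259 and 265). The median over the 246 promoters was 367.5 bases (quartiles 295 and 498), so TMH11 lay below the lower quartile. RPN9 lay near the upper quartile, which fell within its interval, and its median was 497 counting each isoform once. The most used isoform held 33.4% of the opposite-strand reads at TMH11 (131 reads, −217 to −475), 12.1% at SLX5 (50 reads), 9.63% at DLD3 (70 reads) and 3.85% at RPN9 (17 reads, −227 to −834).

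One isoform of SLX5 stood apart from its neighbours. Of 36 reads that began at −338, 32 ended at −782, and only 1 other opposite-strand read ended there. None of the 249 reads that began 3 bases away, at −335, did so. Copies made by PCR cannot be told from separate molecules in these counts, and without this isoform SLX5 would have 382 opposite-strand reads and an end span of 99 bases in place of 162. Most isoforms were seen once, as for 213 of 303 at DLD3, 192 of 273 at RPN9, 100 of 157 at SLX5 and 44 of 77 at TMH11.

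The first 100 bases of the 4 opposite-strand RNAs are shown from their leading starts, with motifs known for Nrd1 and Nab3 in capitals where present.
DLD3, chrV:15889-15988, minus strand: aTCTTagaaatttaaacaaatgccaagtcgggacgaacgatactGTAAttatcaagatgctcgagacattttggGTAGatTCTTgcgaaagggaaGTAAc
RPN9, chrIV:1321879-1321978, minus strand: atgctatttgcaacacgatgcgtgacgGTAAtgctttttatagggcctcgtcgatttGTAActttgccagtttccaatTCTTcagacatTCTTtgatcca
SLX5, chrIV:428633-428732, minus strand: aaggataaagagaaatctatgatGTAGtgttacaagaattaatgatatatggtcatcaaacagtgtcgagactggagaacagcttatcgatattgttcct
TMH11, chrX:585654-585753, plus strand: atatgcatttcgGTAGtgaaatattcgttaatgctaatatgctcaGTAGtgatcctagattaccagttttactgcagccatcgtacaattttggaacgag

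The motifs are GTAG and GTAA, known for Nrd1, and TCTT, known for Nab3, on the RNA strand. In the first 200 bases DLD3 held 8 of them in all (2 GTAG, 3 GTAA and 3 TCTT), RPN9 5 (2 GTAA and 3 TCTT), SLX5 3 (1 GTAG and 2 TCTT) and TMH11 6 (2 GTAG and 4 TCTT). The median over the 246 opposite-strand RNAs was 4 (quartiles 3 and 5.75). The first 200 bases of the mRNAs held 1 at DLD3, 1 at RPN9 and 3 at TMH11, beside a median of 2 over 162 promoters. GTAG was found in 54.5% of the 246 opposite-strand RNAs and in 30.2% of the sense RNAs of the 162 promoters. GTAA was found in 65.4% and 57.4%, and TCTT in 84.6% and 59.3%. The 162 are only those promoters with at least 10 sense reads, so the sets differ. These short matches do not show that either protein was bound.

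Because TMH11 differed from the others in its ends, the last 60 bases before the leading end are shown for all 4, with TATATA and AATAAA, motifs that help to place poly(A) sites in yeast, in capitals where present.
DLD3, chrV:15638-15697, minus strand: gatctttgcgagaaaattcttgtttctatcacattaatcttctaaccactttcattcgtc
RPN9, chrIV:1321371-1321430, minus strand: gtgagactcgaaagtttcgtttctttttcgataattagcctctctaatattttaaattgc
SLX5, chrIV:428431-428490, minus strand: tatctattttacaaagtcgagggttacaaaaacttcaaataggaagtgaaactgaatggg
TMH11, chrX:585853-585912, plus strand: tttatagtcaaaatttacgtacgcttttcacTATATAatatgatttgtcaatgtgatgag

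TMH11 held 1 TATATA there, which 8.54% of the 246 RNAs held, and none of the 4 held AATAAA, which 6.10% held. The stretch was 73.3% A and T at TMH11, 66.7% at DLD3 and SLX5 and 68.3% at RPN9, beside a median of 63.3%. A-rich genome, at least 7 A in the 10 bases after an end, is where the poly(T) primer could have bound inside a longer RNA. Opposite-strand ends before it had 1 read at DLD3, 0 at RPN9, 1 at SLX5 and 2 at TMH11. None of the leading ends met this setting. The 10 bases after them were aaaaacttta at RPN9, aaaacctgca at DLD3, ggaaatatat at SLX5 and tgaatgtctc at TMH11. Priming at shorter runs of A was not tested. On the sense strand, ends before A-rich genome had 8 of 47 reads at DLD3, 21 of 71 at RPN9 and 0 at TMH11. Without them, 29.9% of sense read pairs of RPN9 shared an end and 3 ends held 84.0% of its sense reads.

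Each RNA met a different neighbour. The RPN9 opposite-strand RNA ran into SNX41, whose stop codon lies 263 bases before the RPN9 start codon. All 442 reads overlapped the SNX41 ORF, by a median of 467 of its 1878 bases and by 695 bases (37.0%) at most. They made up all but 1 of the 443 reads antisense to SNX41, against 5 sense reads that touched that ORF and 2 that covered it.

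The SLX5 opposite-strand RNA converged with the mRNA of NOP1, which encodes the snoRNA-associated protein fibrillarin and lies on the strand of SLX5. NOP1 had 1007 covering reads, 654 of which ended at −555 relative to SLX5. Of the SLX5 opposite-strand reads 97.3% (95.3 to 98.5) passed that end, so that their 3′ parts are complementary to the end of the NOP1 mRNA. Far fewer, 42 reads (10.1%, 7.59 to 13.4), reached the NOP1 ORF itself, and the median overlap of those was 63 bases. Of these 42 reads, 32 were the isoform from −338 to −782 described above, which could include copies made by PCR. The share and the median overlap therefore rest mostly on that isoform, and the interval does not allow for such copies.

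At DLD3 the neighbour RMD6 lies on the same strand and 1939 bases away, and 0 of 727 opposite-strand reads reached its ORF or the leading end of its mRNA. The whole RNA therefore lay between genes. TMH11 differs in that its upstream neighbour STE18, the gene for the gamma subunit of the pheromone-response G protein, lies on the other strand, so the opposite-strand RNA runs toward STE18 and in its direction. The leading end, −475, lay 124 bases before the leading start of STE18 mRNA at −599 (155 of 308 covering reads). A single read that began at −212 continued into STE18.

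SNX41 shared its own upstream region with DYN2, the dynein light chain gene, on the opposite strand and 222 bases away. The 69 opposite-strand reads that began within 500 bases of SNX41 touched DYN2, and 65 reads covered it, with the leading start at −197 (9 reads). On its own strand, 218 reads on 122 isoforms began and ended upstream of SNX41 with a median length of 300 bases. They began most often at −630 (99 reads), 159 bases upstream of the start codon of CAD1, a transcription factor gene on the other strand, for which these are the 218 opposite-strand reads, beside 0 sense reads. All of them overlapped DYN2, the last ended at −100, and 0 from the leading start reached SNX41.

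**Figure D4:**
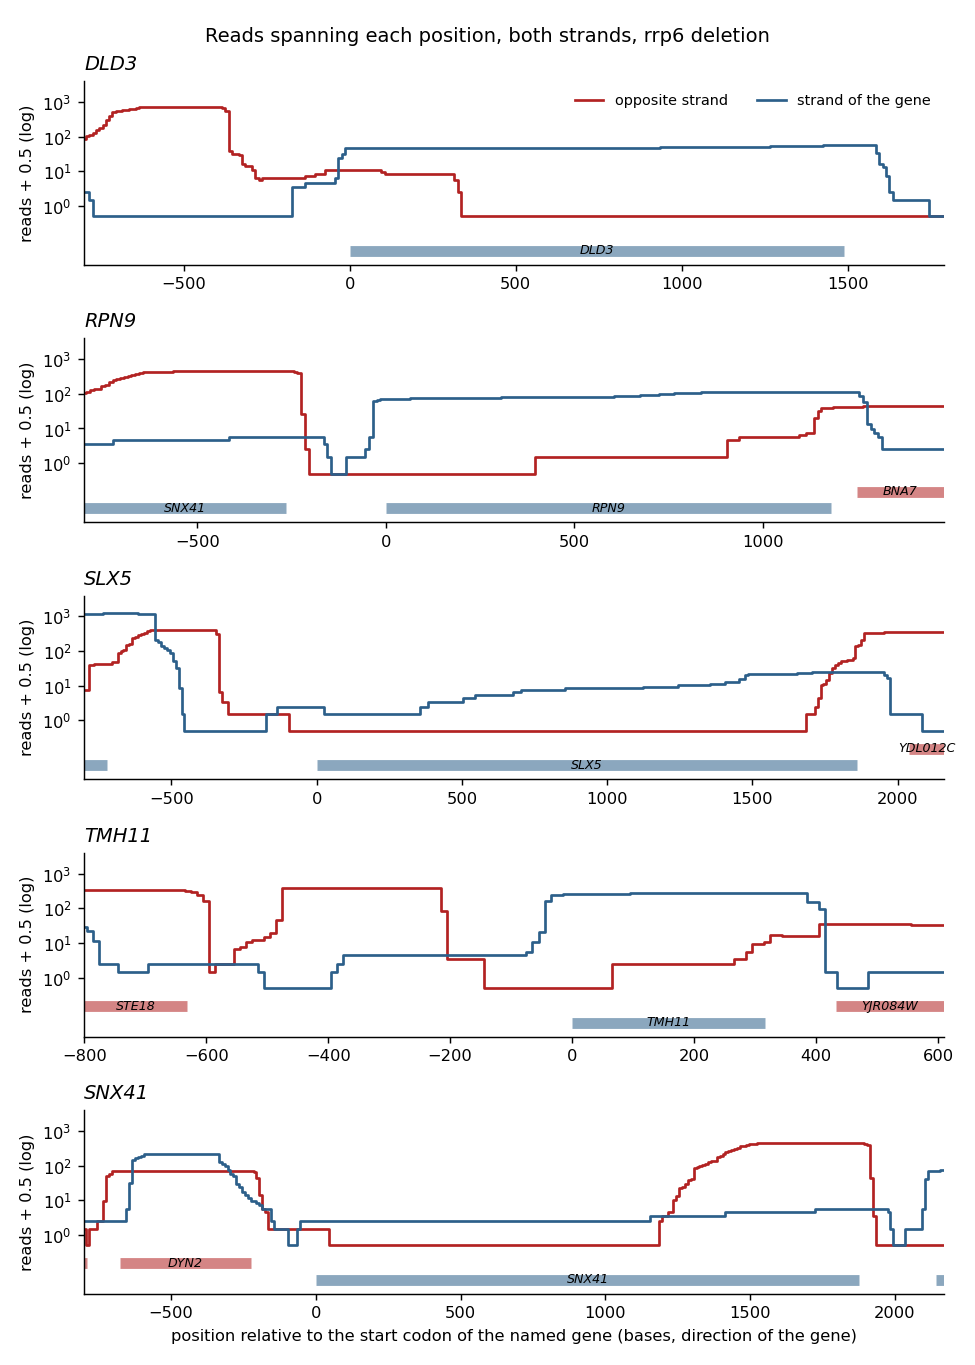
Reads spanning each position (0.5 added, log scale) on the opposite strand in red and on the strand of the named gene in blue, by distance from its start codon; bars are ORFs in the colour of their strand. The red plateaus upstream reach 733 reads at DLD3, 442 at RPN9, 414 at SLX5 and 393 at TMH11, and the RPN9 plateau is the antisense RNA seen at the right of the SNX41 panel.

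Reads of neighbours filled much of some windows. RNAs from further upstream that ended before SLX5, on the strand and in the place of the NOP1 mRNA, gave 1200 of 2014 reads in the SLX5 window. RNAs that began downstream on the opposite strand gave 357 more, and 130 of the 340 covering reads of YDL012C overlapped the SLX5 ORF from the far side. In the RPN9 window, 37 of the 38 reads covering BNA7, a gene of NAD synthesis, overlapped RPN9. Opposite-strand reads that began inside the ORF numbered 10 at DLD3 and 2 at SNX41, where 1 of the 2 came from the RPN9 promoter. Sense reads that began inside the ORF numbered 45 at RPN9, 23 at SLX5, 9 at DLD3, 3 at TMH11 and 3 at SNX41. Sense molecules that began upstream and ended inside the ORF were at most 1 per gene, at DLD3 and SLX5.

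Relatives of the 5 genes had between 0 and 48 opposite-strand reads. Of 8 other lid genes, 5 (RPN5, RPN6, RPN8, RPN11 and SEM1) had 0, beside 54.3% of all ORFs. RPN3 and RPN7 had 1 each and RPN12 had 30, above the upper quartile of all ORFs, which was 5. The proteasome element was found in 6 of them, and 1 of these, RPN12, had at least 10 opposite-strand reads. Among all 6002 ORFs, those with 9 opposite-strand reads ranked 1010, so nothing about lid genes is read from that count. Sense reads of these genes ran from 22 at RPN3 to 907 at SEM1. DLD2, a D-lactate dehydrogenase family gene, had 48 opposite-strand and 5 sense reads and ranked 251 by opposite-strand reads, and DLD1 had 6 and 0. SLX8, the partner of SLX5, the sorting nexin genes ATG20 and SNX4, and TMH18, a relative of TMH11, had 0 opposite-strand reads, with 16, 4, 31 and 281 sense reads.

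The start patterns were also compared with those of 92 other ORFs that had at least 100 opposite-strand reads, as the share of reads in the same strand and 25-base bin. CAX4 was most like SLX5, with 88.9% shared, and had 267 opposite-strand and 3 sense reads. YPS1 was most like DLD3 (77.2%), TSR4 most like TMH11 (73.7%) and the TRAMP poly(A) polymerase gene PAP2 most like RPN9 (68.2%), with its leading opposite-strand start at −231. Typical pairs shared far less, with medians of 6.91% for DLD3, 5.80% for TMH11, 4.54% for RPN9 and 1.59% for SLX5. The match of SNX41, MRS2 (68.3%), compares the DYN2 mRNA starts of its promoter.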

How the data were processed

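The data were TIF-Seq reads from 4 libraries of an rrp6 deletion strain, which the authors deposited as 1 pooled count per isoform. The deposited counts are whole reads per pair of start and end position, on build R64 per the submitters' processing notes, which also name CASAVA and Novoalign 2.07.10 without a role. Whether PCR copies were removed is not given in the sources used here, and intervals therefore cover counting error only. The depth of each library is unknown. Genes and sequence came from the R64 RefSeq assembly and its annotation, with 6002 nuclear ORFs and 411 noncoding genes, and all positions lay within its chromosomes.

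Shares carry Wilson intervals and medians binomial order-statistic intervals, computed with Python 3.11.15 and SciPy 1.17.1. The counting of sense and opposite-strand reads was checked on simulated data, at ORFs with no annotated gene on the other strand nearby. Leaving out reads that touch a gene of their strand was therefore not checked. The named genes are the 5 genes, the 5 next by opposite-strand reads, the best matches in start pattern, neighbours and a fixed list of relatives. CAD1 was named after its values were seen. The genes and lists were chosen with earlier results of these data known. Tested alternatives were minimum reads per isoform, counting isoforms, upstream windows of 300 and 800 bases, leaving out ends followed by at least 7 A in 10 bases, and keeping isoforms that touch a gene.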

Additional observations from a re-analysis of the deposited data

How the results depend on the processing

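Of 135 values recomputed for 18 results, 92 stayed within the main value's counting interval, or within 1.5 times for the genome count, and 43 did not. Cultures or preparations could not be left out in turn because the counts are pooled. No paired analysis was possible because the only column pools the libraries and no test was run. SNX41 has no value at minimums of 2 and 5 reads per isoform, where it has no reads. With 2 sense reads each, SLX5 and SNX41 give no picture of their mRNA starts and ends, and no value here carries an error between cultures.

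With at least 2 and at least 5 reads per isoform the opposite-strand share was 96.4% and 100% at DLD3, 82.8% and 67.8% at RPN9, and 100% in both at SLX5. Counting each isoform once it was 89.6% at DLD3 and 90.1% at RPN9, and without ends before A-rich genome 89.8% at RPN9. The 300-base window leaves out the leading starts of DLD3 and SLX5, and the shares fell to 16.1% and 33.3%. With isoforms that touch a gene kept, SNX41 reached 97.2% through DYN2 mRNA.

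Reads within 10 bases of the leading start made 96.3% at DLD3 and 100% at RPN9 with at least 2 reads per isoform, 100% at all 4 promoters with at least 5, and 71.3% (DLD3), 92.3% (RPN9), 87.9% (SLX5) and 87.0% (TMH11) counting isoforms once. Within 20 bases they made 90.5% at DLD3, 98.6% at RPN9, 98.8% at SLX5 and 97.96% at TMH11. In the 300-base window SLX5 had 1 opposite-strand read, hence 100%.

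The median length was 530 bases at RPN9 with at least 5 reads per isoform, 290 at SLX5 and 264 at TMH11 counting isoforms once, and 401 at DLD3 and 487 at SLX5 in the 300-base window. The median start was −338 at SLX5 and −216 at TMH11 counting isoforms once, and −289 at DLD3 and −95 at SLX5 in the 300-base window.

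The 206 ORFs with more opposite-strand than sense reads became 100 and 64 with at least 2 and 5 reads per isoform, 132 counting isoforms once, 110 in the 300-base window, 739 with isoforms that touch a gene kept, and 427 and 29 with at least 20 and 200 promoter reads. Each of these also changes how many ORFs enter the count.

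Alternatives for the ends were chosen after seeing the data. Counting isoforms once, 3 ends held 7.26% of opposite-strand isoforms at DLD3, 7.33% at RPN9, 12.7% at SLX5 and 27.3% at TMH11. Pairs sharing an end then made 0.531% at DLD3, 0.660% at RPN9, 1.19% at SLX5 and 3.66% at TMH11 on the opposite strand, and 13.8% at RPN9 and 13.0% at TMH11 on the sense strand. The end span became 53 bases at TMH11, and 99 at SLX5 without 1 isoform. The other 27 of 39 such values stayed within 1.5 times.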
